A study of Mus musculus with 6 samples.

Results

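The neurotrophins and the GDNF system with their receptors were followed in whole mouse retina through 8 genes, chosen by symbol from the rows of a table of gene counts. All 8 were among the 24062 genes of that table: the ligand genes Bdnf, Ntf3 and Gdnf, the neurotrophin receptor genes Ntrk2, Ntrk3 and Ngfr, and the GDNF receptor genes Gfra1 and Ret. RNA-seq compared wild-type retinas (WT) with rd10 retinas at postnatal day 30. The labels give both groups the strain C57Bl6/J, and neither a treatment nor a transgene. In rd10 mice every cell has a missense allele of Pde6b, the rod phosphodiesterase beta subunit gene, and its rods die early in life. There were 3 libraries per group, each from a pool of 2 frozen retinas, so no value belongs to a single eye. Nothing in the labels ties a pool to its animals, so the p-values here speak only to the spread among these pools, which may be technical. Libraries keep the names of the count table, WT-1, WT-4 and WT-23 for wild type and Rd10-3, Rd10-4 and Rd10-5 for rd10, and values given in a row follow that order.

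Neurotrophins are secreted proteins that keep neurons alive and shape their synapses. BDNF, encoded by Bdnf, signals through the receptor tyrosine kinase TrkB (Ntrk2), and the neurotrophin encoded by Ntf3 mainly through TrkC (Ntrk3). Ngfr encodes the p75 receptor, which binds all neurotrophins and their uncleaved precursors and can signal for survival or death. GDNF (Gdnf) binds a membrane-anchored co-receptor encoded by Gfra1, and the pair activates the receptor tyrosine kinase Ret. In the retina, BDNF is best known for the support of ganglion cells, and Müller glia express Trk, p75 and GDNF receptors and are thought to relay trophic signals to photoreceptors. Ntrk2 and Ntrk3 also make truncated receptors without a kinase domain, which counts per gene cannot separate from the full-length forms.

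Reference sequence around transcription starts was at hand for 6 of the 8 members, in 14 windows of 300 bases (250 before the start and 50 after it; RefSeq, GRCm38.p6). Shown are the windows of Ntf3 and Gfra1, members that rose in rd10, and a Bdnf window with a match to the core of the cAMP response element, for a ligand gene whose level was not called. Each is written 5′ to 3′ on the gene's own strand, with matches in capitals. The capitals mark the GC box GGGCGG in Ntf3, the TEAD motif GGAATG in Gfra1 and the core TGACG in Bdnf, on either strand. The Ntf3 windows lie at chr6:126166695-126166994 and chr6:126164911-126165210 (both minus strand), the Gfra1 window at chr19:58455349-58455648 (minus strand) and the Bdnf window at chr2:109692186-109692485 (plus strand).
Ntf3, upstream start: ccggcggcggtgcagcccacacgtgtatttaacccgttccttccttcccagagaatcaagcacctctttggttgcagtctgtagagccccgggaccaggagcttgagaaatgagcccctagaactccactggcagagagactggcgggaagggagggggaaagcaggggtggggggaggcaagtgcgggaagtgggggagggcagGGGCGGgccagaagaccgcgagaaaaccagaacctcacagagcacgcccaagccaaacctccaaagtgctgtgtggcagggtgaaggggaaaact
Ntf3, downstream start: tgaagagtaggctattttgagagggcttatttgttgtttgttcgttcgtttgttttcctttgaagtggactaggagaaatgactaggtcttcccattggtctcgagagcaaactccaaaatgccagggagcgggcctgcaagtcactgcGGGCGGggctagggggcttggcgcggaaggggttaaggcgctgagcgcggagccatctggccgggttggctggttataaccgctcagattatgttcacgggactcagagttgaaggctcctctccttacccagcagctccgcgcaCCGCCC
Gfra1: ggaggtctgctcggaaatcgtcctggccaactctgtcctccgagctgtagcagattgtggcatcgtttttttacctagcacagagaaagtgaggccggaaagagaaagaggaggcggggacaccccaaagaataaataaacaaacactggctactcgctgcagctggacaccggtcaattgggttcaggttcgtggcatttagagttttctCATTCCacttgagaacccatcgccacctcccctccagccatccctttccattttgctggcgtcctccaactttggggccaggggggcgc
Bdnf: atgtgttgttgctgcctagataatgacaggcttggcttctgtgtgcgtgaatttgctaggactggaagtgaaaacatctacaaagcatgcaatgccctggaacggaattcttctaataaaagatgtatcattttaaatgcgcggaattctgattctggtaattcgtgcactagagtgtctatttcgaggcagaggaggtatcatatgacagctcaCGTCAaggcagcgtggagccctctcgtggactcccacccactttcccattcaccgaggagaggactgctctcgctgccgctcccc

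Of 32851 such windows of all genes, 35.7% held GGGCGG, 14.7% GGAATG, 20.8% TGACG, 7.81% the AP-1 motif TGANTCA and 8.3% the STAT motif TTCNNNGAA. Among the 14 windows of the members, 6 held the GC box, 3 GGAATG, 2 TGACG, 1 the AP-1 motif and 1 the STAT motif. The 3 windows with GGAATG were that of Gfra1 and 2 of the 7 Bdnf windows, and the 2 with TGACG belonged to Bdnf and Gdnf. These matches describe the letters of the windows and are not binding sites.

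The WT libraries held 13573035 to 15818918 counts each, and the rd10 libraries 10923556 to 12171088. The rod marker list (15 genes) summed to between 105704 and 121015 CPM in WT and between 21412 and 31459 CPM in rd10 (CPM: the gene's share of the TMM-scaled library total, per 1000000 counts), and each of its 15 genes fell. The labelled tissue was checked against its markers, and no listed rod, cone, bipolar, amacrine or ganglion cell gene was at 0 in all libraries. In whole tissue, fewer cells of a type and less RNA per cell cannot be told apart, and the loss of rod RNA raises the share of every other cell's RNA.

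In rd10 retinas Ntf3, Ret and Gfra1 were higher than in WT, while Bdnf, Ntrk3 and Ngfr were not called and Ntrk2 missed the threshold. Gdnf did not pass the filter on low counts. Ntf3 was about 7.18-fold higher, but at a trace level. Ret and Gfra1, the GDNF receptor pair, were 1.41-fold and 1.33-fold higher from WT levels of 78.1 and 76.9 CPM. Of the 7 members that passed the filter on low counts, 3 were called higher and 0 lower (edgeR quasi-likelihood test, Benjamini-Hochberg adjusted p under 0.05 over all 13905 genes tested). Over all those genes, 7.12% were called higher and 7.32% lower, or 14.4% in all. Ntf3 passed the filter only through the rd10 libraries, so it had to differ to be tested, and of the other 6 tested members 2 were called. The libraries of the groups did not overlap for 4 of the 7 members, all higher in rd10. Among all tested genes the share was 35.7%, and 17.1% with rd10 higher. Those 4 were Ntf3, which had to differ to be tested, and Ntrk2, Gfra1 and Ret. The median log2 fold change of the 7, with Ntf3 among them, was 0.35, and that of all tested genes -0.04. Members were chosen with earlier results of these data known, so these shares are a description and not a test.

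**Figure D1:**
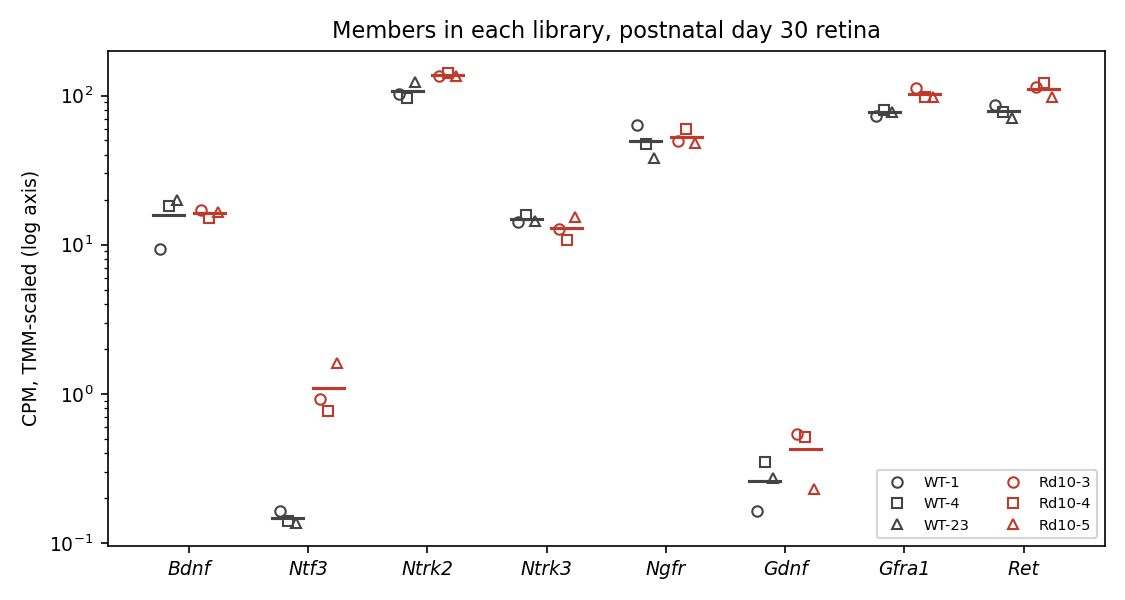
Level of each of the 8 members in each library, in TMM-scaled CPM on a log axis; open symbols are libraries (3 WT in grey, 3 rd10 in red) and bars are group means. Ntf3, Ntrk2, Gfra1 and Ret have all 3 rd10 libraries above all 3 WT libraries, while Bdnf, Ntrk3, Ngfr and Gdnf overlap.

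Among the ligands, each WT library held 2 counts of Ntf3, while Rd10-3, Rd10-4 and Rd10-5 held 12, 9 and 21. Every rd10 library was above every WT library, with the highest value in Rd10-5. In CPM, Ntf3 went from 0.146 ± 0.015 to 1.10 ± 0.44 (SD, n = 3 libraries per group). The fitted log2 fold change was 2.84 ± 0.50 (SE; edgeR adjusted p = 0.00804). With 6 counts in all of WT against 42 in rd10, the ratio of summed counts per scaled library was 7.63, with a 95% interval of 3.23 to 22 (exact Clopper-Pearson interval, counting error only). Leaving out any library kept the call, with log2 fold changes from 2.47 to 3.04 and edgeR adjusted p from 0.0114 to 0.0428. Ntf3 entered these tests too only through its rd10 libraries, so the kept calls are not independent support.

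Bdnf had 114, 260 and 294 counts in WT-1, WT-4 and WT-23, and 221, 177 and 217 in the rd10 libraries. The rd10 libraries all lay inside the WT range, above the low value of WT-1 and, in CPM, below WT-4 and WT-23. Its level was 15.8 ± 5.7 CPM in WT and 16.2 ± 1.0 CPM in rd10, and its log2 fold change 0.03 ± 0.26 (95% interval -0.57 to 0.64; edgeR adjusted p = 0.95). The sign was not stable: the value was -0.24 without WT-1 (edgeR adjusted p = 0.288), -0.0037 without Rd10-3 and -0.26 with factors taken from inner neuron markers.

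Gdnf, the glial factor that binds the Gfra1 product, was counted 2, 5 and 4 times in the WT libraries and 7, 6 and 3 times in the rd10 ones. The groups overlapped, and the gene did not pass the filter. It was among the genes tested with DESeq2 and with no filter on low counts, and was called in neither. The ratio of its summed counts, 11 in WT against 16 in rd10, was 1.59 with a 95% interval of 0.691 to 3.78 (exact Clopper-Pearson interval, counting error only). The counts at this depth do not settle whether Gdnf changed.

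Among the neurotrophin receptors, Ntrk2 had the most counts, not corrected for gene length, with 1259, 1391 and 1820 in WT-1, WT-4 and WT-23 and 1771, 1655 and 1776 in rd10. In CPM the WT libraries stood at 103, 96.9 and 123 and the rd10 libraries at 136, 141 and 135, so the groups did not overlap and the rd10 libraries were the closer together. The log2 fold change of Ntrk2 was 0.35 ± 0.12 (95% interval 0.07 to 0.63), and it missed the threshold over all genes (edgeR adjusted p = 0.0972). It passed when WT-23 was omitted (0.48, adjusted p = 0.0276), when the GC trend was taken out (0.38, adjusted p = 0.0104) and with upper quartile factors (0.45, adjusted p = 0.0411) or library size alone (0.59, adjusted p = 0.015). With factors taken from bipolar, amacrine and ganglion cell markers (inner neuron scaling) the value was 0.07 (adjusted p = 0.745).

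Ntrk3, the gene of TrkC, was counted 173, 228 and 214 times in the WT libraries and 165, 126 and 200 times in the rd10 ones. Its level was 14.8 ± 0.9 CPM in WT and 12.9 ± 2.2 CPM in rd10, with Rd10-5 inside the WT range and the other two rd10 libraries below it. The log2 fold change was -0.20 ± 0.17 (95% interval -0.59 to 0.18; edgeR adjusted p = 0.454), and with library size alone it was 0.03.

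Ngfr, the gene of p75, was counted 770, 680 and 564 times in WT against 650, 700 and 635 times in rd10. Its level was 49.5 ± 12.5 CPM in WT and 52.6 ± 6.1 CPM in rd10, and all 3 rd10 libraries lay between WT-1 at 63.0 and WT-23 at 38.2 CPM. The log2 fold change was 0.09 ± 0.19 (95% interval -0.35 to 0.53; edgeR adjusted p = 0.797), and it was -0.17 with inner neuron scaling, -0.04 without WT-23 and -0.01 without Rd10-4. Cells of vessels and nerve sheaths express p75 as well. The 13 endothelial and pericyte markers summed to between 1614 and 1980 CPM in WT and between 1294 and 1378 in rd10, with 1 gene called higher and 1 lower. The gene called lower was Vtn, the vitronectin gene, at 1322 CPM in WT and 487 in rd10. The other 12 markers summed to between 511 and 558 CPM in WT and between 807 and 872 in rd10. Most of that rise was Kdr, the gene called higher, at 290 CPM in WT and 551 in rd10. The remaining 11 markers were not called, and the median log2 fold change of the list was 0.07. The 8 myelin and Schwann cell markers summed to between 81.2 and 102 CPM in WT and between 98.5 and 123 in rd10, with Mog at 0 in all libraries and none called. The part of these cells in the Ngfr level was not tested.

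The GDNF receptor genes rose together. Ret had 1049, 1117 and 1044 counts in WT-1, WT-4 and WT-23 and 1479, 1414 and 1277 in Rd10-3, Rd10-4 and Rd10-5. In CPM the WT libraries stood at 85.8, 77.8 and 70.8 and the rd10 libraries at 114, 120 and 97.2, with no overlap. The log2 fold change of Ret was 0.50 ± 0.13 (95% interval 0.20 to 0.80; edgeR adjusted p = 0.0392). Gfra1, its co-receptor gene, was counted 896, 1154 and 1137 times in WT and 1455, 1151 and 1286 times in rd10, or 73.3, 80.4 and 77.1 CPM against 112, 98.1 and 97.8 CPM. Again no library of a group reached into the other, and the highest value was that of Rd10-3. The log2 fold change of Gfra1 was 0.41 ± 0.11 (95% interval 0.16 to 0.67; edgeR adjusted p = 0.0431).

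Both calls lay close to the threshold. Leaving out any of the 6 libraries ended that of Gfra1, with adjusted p = 0.0509 without WT-1, 0.135 without WT-4, 0.0637 without WT-23, 0.206 without Rd10-3, 0.0938 without Rd10-4 and 0.101 without Rd10-5 (edgeR, log2 fold changes from 0.35 to 0.46). That of Ret held without WT-1 (0.57, adjusted p = 0.0166) and ended in the other omissions, with adjusted p = 0.139 for WT-4, 0.0651 for WT-23, 0.159 for Rd10-3, 0.13 for Rd10-4 and 0.0505 for Rd10-5, and with log2 fold changes from 0.43 to 0.58. Against a fold of 1.2 neither passed (adjusted p = 0.134 for Ret and 0.203 for Gfra1). With inner neuron scaling the log2 fold changes were 0.23 for Ret and 0.14 for Gfra1 (adjusted p = 0.22 and 0.473). With the GC trend removed both passed by a wider margin (adjusted p = 0.00473 for Ret and 0.00316 for Gfra1).

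**Figure D2:**
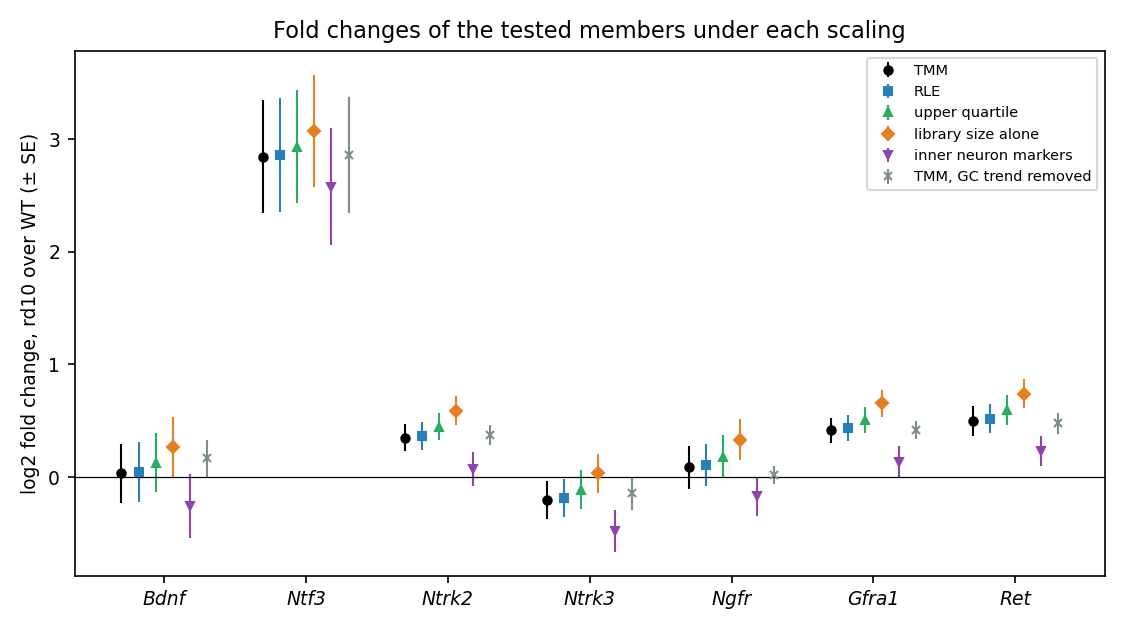
Log2 fold change of the 7 tested members, rd10 over WT, under 6 scalings; symbols are fitted values and bars are SE from 3 libraries per group. Ntf3 lies between 2.58 and 3.08, while Ret and Gfra1 lie at 0.50 and 0.41 with TMM and at 0.23 and 0.14 with inner neuron markers.

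In the authors' deposited table Ret had an FPKM of 110.1 in WT and 155.4 in rd10. Gfra1 had 25.7 and 34.3 in the same authors' deposited table. The row of Ntrk2 in the authors' deposited table gave 93.3 and 118.8. The deposited log2 fold changes of the authors' deposited table were 0.50, 0.41 and 0.35, with unadjusted p-values of 0.00199, 0.0047 and 0.0221. The other 5 members had no row in the authors' deposited table, in which no gene had a p of 0.05 or more, a fold under 1.2 or an FPKM under 2 in both groups, so the absence of a row does not give the authors' p.

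Ratios of 2 genes within a library do not depend on the scaling. Relative to Bdnf counts, Ntf3 counts were 1.75%, 0.769% and 0.68% in WT-1, WT-4 and WT-23 and 5.43%, 5.08% and 9.68% in Rd10-3, Rd10-4 and Rd10-5, so the ratio of these ligand genes shifted toward Ntf3 in every rd10 library. The log2 ratio, with 0.5 added to each count, went from -6.37 ± 0.74 to -3.90 ± 0.49 (SD, n = 3 libraries per group), a difference of 2.46 ± 0.51 (SE). Between the Trk receptor genes, Ntrk3 counts were 13.7%, 16.4% and 11.8% of Ntrk2 counts in WT-1, WT-4 and WT-23 and 9.32%, 7.61% and 11.3% in Rd10-3, Rd10-4 and Rd10-5. The highest rd10 library stayed just below the lowest WT library, and the log2 ratio differed by -0.58 ± 0.21 (SE). Ntf3 relative to its receptor gene Ntrk3 differed by 2.79 ± 0.21 on the log2 scale (2.27 with 2 added to each count in place of 0.5). The WT side of both Ntf3 ratios rests on 2 counts of Ntf3 per library. Ntf3 reached the count needed for a compared pair only in rd10, so both its shifts are not independent support. For these 3 pairs the exact two-sided permutation p was 0.1, the smallest that 3 against 3 libraries can give, and adjusted over the 7 pairs compared it was 0.233.

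The remaining 4 pairs overlapped between the groups. Gfra1 counts were 85.4%, 103% and 109% of Ret counts in WT and 98.4%, 81.4% and 101% in rd10, a log2 difference of -0.08 ± 0.14 (SE, n = 3 libraries per group; exact permutation p = 0.5). Bdnf over Ntrk2 differed by -0.25 ± 0.33 and Ngfr over Ntrk2 by -0.25 ± 0.30 on the log2 scale (exact permutation p = 0.5 for both). Single WT libraries decided the size of both differences. That of Bdnf over Ntrk2 was -0.56 without WT-1 (exact permutation p = 0.1), -0.15 without WT-23 and -0.04 without WT-4, and that of Ngfr over Ntrk2 was -0.52 without WT-23 (exact permutation p = 0.1) and -0.03 without WT-1. Gdnf over Gfra1, with at most 7 Gdnf counts in a library, differed by 0.20 ± 0.40 (exact permutation p = 0.6).

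**Figure D3:**
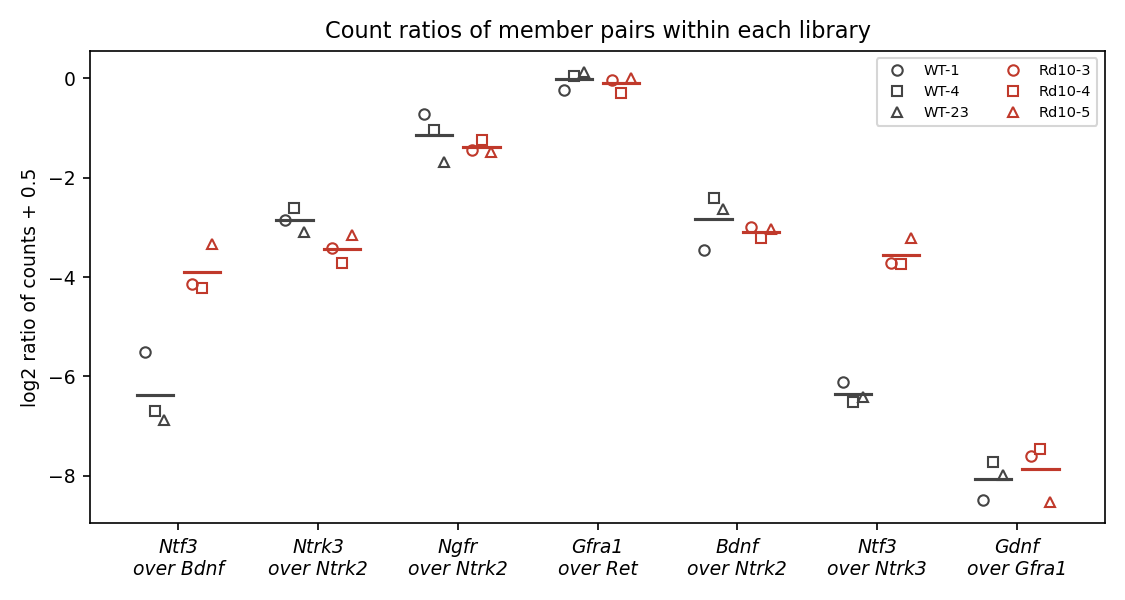
Log2 ratio of the counts of 7 member pairs within each library, with 0.5 added to each count; open symbols are libraries (3 WT in grey, 3 rd10 in red) and bars are group means. Ntf3 over Bdnf and Ntf3 over Ntrk3 are higher in all rd10 libraries and Ntrk3 over Ntrk2 is lower, while the other 4 pairs overlap.

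Levels were also read relative to cells that remain. The 42 tested markers of bipolar, amacrine and ganglion cells served as a reference for inner neurons, and 16 markers of Müller cells as a reference for these glia. The Müller list summed to between 9626 and 10492 CPM in WT and between 14451 and 17330 CPM in rd10, and 10 of its 16 genes were called higher, so the list itself moved with the genotype. Of the 42 inner neuron markers 5 were called higher and 1 lower, with a median log2 fold change of 0.24. The summed levels did not overlap either: bipolar markers lay between 2373 and 2664 CPM in WT and between 2858 and 2979 in rd10, amacrine markers between 2222 and 2626 and between 2706 and 3057, and ganglion cell markers between 1711 and 1990 and between 2100 and 2186. Relative to the inner neuron markers, Ntf3 was higher in every rd10 library by 1.80 ± 0.31 and Ret by 0.28 ± 0.07 (log2 CPM, SE, n = 3 libraries per group; exact permutation p = 0.1 for both, the smallest possible). These log2 CPM values include a prior count of 2, which draws in the difference of a gene as scarce as Ntf3. With a prior count of 0.5 Ntf3 differed by 2.34 from the inner neuron markers and by 1.92, in place of 1.37, from the Müller markers. Ntf3 entered these comparisons only through its rd10 libraries, so its differences from either list are not independent support. With the median of the markers in place of the mean, Ret differed by 0.16 and p was 0.2. Gfra1 differed by 0.20 ± 0.13 (exact permutation p = 0.3), Ntrk2 by 0.14 ± 0.15 (p = 0.4) and Ntrk3 by -0.43 ± 0.21 (p = 0.2), and their groups overlapped. Relative to the Müller markers Ntf3 was higher by 1.37 ± 0.32 in rd10, whereas Ntrk2 differed by -0.28 ± 0.11, Ngfr by -0.53 ± 0.20 and Ntrk3 by -0.86 ± 0.20, each without overlap (exact permutation p = 0.1). Gfra1 and Ret differed from them by -0.23 ± 0.09 and -0.14 ± 0.08, with overlap (exact permutation p = 0.2 and 0.3). With the median of the Müller markers, the exact permutation p was 0.2 for Ngfr (-0.62) and 0.1 for Gfra1 (-0.32). Adjusted over these 14 comparisons no p was under 0.233, which was the adjusted value of each p of 0.1. All 13 microglia markers were called higher (median log2 fold change 2.12), and their sum went from between 116 and 132 CPM in WT to between 354 and 457 in rd10. Of the 12 gliosis markers 11 were called higher (median 2.46), with sums between 273 and 382 CPM in WT and between 1234 and 1611 in rd10, and of 5 tested astrocyte markers 3 were called higher (median 0.83), with sums between 761 and 1066 CPM in WT and between 1322 and 1638 in rd10. Gfap, at 55.3 CPM in WT and 356 in rd10, is in both the gliosis and the astrocyte list. Vim is in both the Müller and the gliosis list, so these lists are not independent. Aif1 of the microglia list and Timp1 and Edn2 of the gliosis list passed the filter on low counts only through the rd10 libraries. The calls of these genes are therefore not independent support. The part of Müller cells, microglia, astrocytes and lost rods in each member's change was not tested.

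The spread of 2 members within WT moved with the GC content of their transcripts. Bdnf, with 40.9% GC in its longest transcript, was lowest in WT-1, and Ngfr, with 58.6% GC, was highest there. A smooth trend of each library's log2 CPM with GC content, fitted over all tested genes, stood in WT-1 at -0.23 for the GC content of Bdnf and at 0.37 for that of Ngfr. In WT-23 it stood at 0.30 and -0.40, and in Rd10-4 at -0.24 and 0.32. With the trend removed, the SD of Ngfr among WT libraries went from 0.36 to 0.037 on the log2 scale and that among rd10 libraries from 0.16 to 0.075. Its log2 fold change was then 0.01 ± 0.08 (SE, n = 3 libraries per group; edgeR adjusted p = 0.909). The WT SD of Bdnf went from 0.59 to 0.35, and WT-1 stayed its lowest library, at -0.50 from the gene's mean. Ntrk3, at 43.6% GC, went the other way in WT, from an SD of 0.087 to 0.21.

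**Figure D4:**
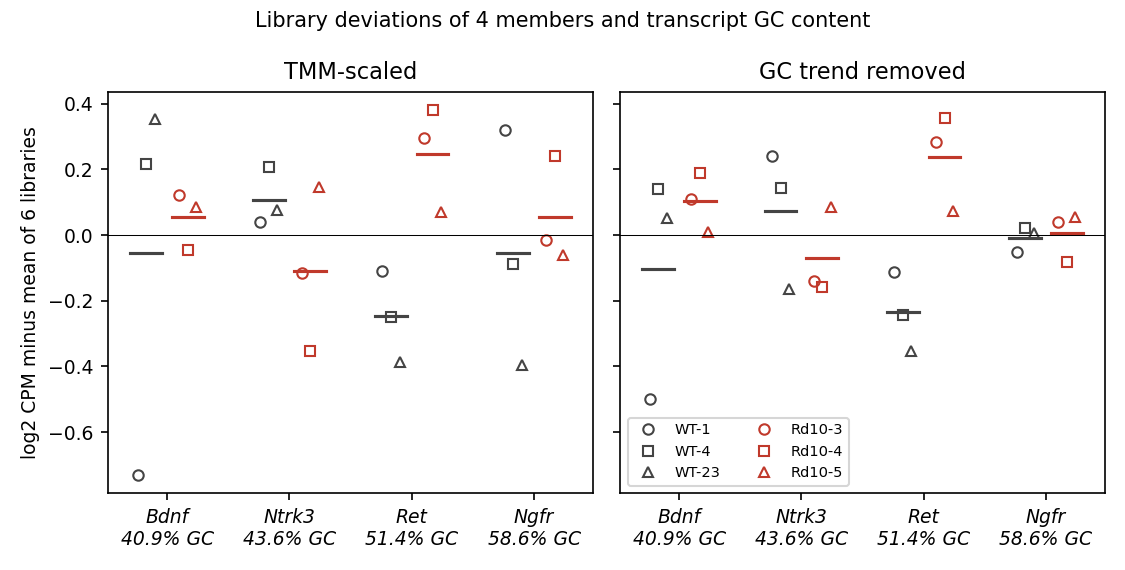
Log2 CPM of 4 members minus the gene's mean over the 6 libraries, with TMM scaling (left) and with each library's GC trend removed (right); open symbols are libraries, bars are group means and the label gives transcript GC content. The WT libraries of Ngfr draw together on the right, and WT-1 stays low for Bdnf.

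Between genes, levels are compared per length, and the order depended on the length used. Divided by the total exon length in GENCODE M21, the WT levels were 14.4 ± 3.6 CPM per kilobase for Ngfr, 14.0 ± 0.7 for Gfra1, 11.6 ± 1.1 for Ret, 5.59 ± 0.72 for Ntrk2, 2.54 ± 0.91 for Bdnf, 0.492 ± 0.030 for Ntrk3, 0.085 ± 0.009 for Ntf3 and 0.071 ± 0.025 for Gdnf (SD, n = 3). Ngfr, Gfra1 and Ret, and likewise Ntf3 and Gdnf, lay within each other's spread or close to it. In rd10 the order was Gfra1 at 18.7 ± 1.4, Ret at 16.3 ± 1.8, Ngfr at 15.3 ± 1.8, Ntrk2 at 7.12 ± 0.17, Bdnf at 2.60 ± 0.16, Ntf3 at 0.639 ± 0.258, Ntrk3 at 0.427 ± 0.075 and Gdnf at 0.116 ± 0.047 CPM per kilobase. Ntf3 thus stood beside Gdnf in WT and beside Ntrk3 in rd10. With the longest principal transcript, 8744 bases for Ntrk2 against 19292 bases of exons, the Ntrk2 level was 12.3 in WT and 15.7 in rd10 CPM per kilobase. By that length the WT means were 16.6 for Gfra1, 14.4 for Ngfr and 14.3 for Ret, all above Ntrk2. In rd10 they were 22.1 for Gfra1, 20.2 for Ret and 15.3 for Ngfr, the last just below Ntrk2. In the authors' deposited table, FPKM in WT was 16.7 times the CPM per kilobase of exon for Ntrk2, 9.53 times for Ret and 1.83 times for Gfra1, against a median of 1.78 over 3419 genes. No source used here gives the lengths behind the deposited FPKM, so levels of Ntrk2 and Ret relative to other genes are uncertain, while a fixed length cancels from their changes between groups.

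Beyond the members, the genes of the pathway were read from 6 lists. Of their 70 tested genes 8 were called, or 11.4%, against 14.4% of all tested genes. Of the 5 tested sortilin-family genes, 2 rose and 0 fell. Sorl1, a sorting receptor gene of the sortilin family, rose by 0.85 ± 0.12 on the log2 scale (edgeR with 3 libraries per group, adjusted p = 0.0028), from 138 ± 5 to 249 ± 26 CPM. Sorcs1, of the same family, rose by 0.69 ± 0.12 (edgeR adjusted p = 0.00739), a call lost when WT-4 was omitted (adjusted p = 0.0582) or inner neuron factors were used (0.0689). Sort1, the gene of sortilin, which binds the precursors of neurotrophins together with p75, went from 314 ± 26 to 288 ± 9 CPM and was not called. Ntf5, a neurotrophin gene, had at most 1 count per library.

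Of 8 tested genes of precursor processing, 1 rose and 1 fell, with a median of 0.05. Plat, the tissue plasminogen activator gene, whose protease starts the cleavage of the BDNF precursor outside cells through plasmin, rose by 0.94 ± 0.22 on the log2 scale (edgeR adjusted p = 0.0257). Omitting WT-4, Rd10-3 or Rd10-4 ended that call (edgeR adjusted p up to 0.0943), as did a test against a fold of 1.2. Plg, the gene of the plasmin precursor, had at most 1 count per library. Cpe, the carboxypeptidase E gene, which acts in the sorting of the BDNF precursor into secretory granules, fell by 0.44 ± 0.12 (edgeR adjusted p = 0.047). This call ended in 10 of 18 alternatives, among them the omission of any library except WT-1, with values from -0.72 to -0.20. The convertase gene Furin was at 31.9 ± 13.6 CPM in WT and 25.9 ± 8.6 in rd10 and was not called.

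Of 5 tested genes of the GDNF family beyond the members, 0 rose and 0 fell (median 0.09). At an unadjusted p under 0.05, which 4188 of all 13905 tested genes reached, stood Gas1, Ncam1 and Sdc3. Gas1, a Ret-binding relative of the co-receptors, had 0.43 ± 0.13 (edgeR adjusted p = 0.0696). Ncam1, an alternative GDNF receptor gene, had -0.40 ± 0.12 (edgeR adjusted p = 0.0624). Sdc3, a heparan sulphate GDNF receptor gene, had -0.42 ± 0.16 (edgeR adjusted p = 0.123). Gfra2, the neurturin co-receptor gene, was level between the groups within its spread, at 40.0 ± 4.6 CPM in WT and 42.5 ± 3.2 in rd10. The other ligand genes of the family were near or at 0, with at most 5 counts of Nrtn and 7 of Artn per library and none of Pspn.

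Of 24 adaptor and effector genes of Trk and Ret receptors, 1 rose and 0 fell, with a median of 0.05. Gab1, a docking protein gene, rose by 0.64 ± 0.12 (edgeR adjusted p = 0.00974), from 29.4 ± 1.7 to 45.8 ± 2.6 CPM, a call that ended without Rd10-3 (adjusted p = 0.0665) and with inner neuron scaling (0.0857). Of 17 tested partners of p75, 1 rose and 0 fell (median 0.08). It was Irak1, a kinase gene shared with interleukin and Toll-like receptors, with a log2 fold change of 0.68 ± 0.13 (edgeR adjusted p = 0.0117); the call ended without WT-4 or Rd10-3 (adjusted p up to 0.0741) and with inner neuron scaling. Of 11 tested genes induced by growth factors and neuronal activity, 1 rose and 1 fell (median 0.23). Spry2, a feedback inhibitor gene of receptor tyrosine kinases, fell by 0.57 ± 0.13 (edgeR adjusted p = 0.0258), and the call ended when WT-4 or any rd10 library was omitted (adjusted p up to 0.101), with library size alone and against a fold of 1.2. Egr1, an immediate early gene, was counted 386, 207 and 182 times in WT and 810, 822 and 3954 times in rd10, so that Rd10-5 stood far above the other libraries. Its log2 fold change was 2.90 ± 0.67 (edgeR adjusted p = 0.0248) and 1.77 without Rd10-5, and the call ended without WT-1, WT-4 or WT-23 (adjusted p up to 0.144), with the GC trend removed (0.0734), with no filter on low counts (0.0595) and when WT-1 and Rd10-4 were omitted together (0.145).

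The genes nearest to a called member were found by the root mean square difference of log2 CPM, each gene centred on its own mean over the 6 libraries. All candidates had a mean of at least 5 CPM, and all values share these 6 libraries and their depths. Nearest to Ret were Dclk2, Rnf19b and Ap1s1 (0.041, 0.041 and 0.045 on the log2 scale, of 11360 candidates). Nearest to Gfra1 were Uhrf1bp1l, Laptm4a and Gstm5 (0.021, 0.029 and 0.030). For Ntf3 the nearest were Gpr34, Plin4 and S100a11, at larger distances of 0.235, 0.273 and 0.283. These log2 CPM values include a prior count of 2, which draws in the differences of a gene as scarce as Ntf3. The fitted log2 fold changes of Gpr34, Plin4 and S100a11 were 1.76, 2.09 and 1.86, against 2.84 for Ntf3.

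On the GRCm38 assembly (GENCODE M21), which mm10 names, all 8 members are protein coding genes. Ntf3 lies on chromosome 6 from 126101412 to 126166910 and Ret on chromosome 6 from 118151745 to 118197718. Gfra1 lies on chromosome 19 from 58235604 to 58455909, Ntrk2 on chromosome 13 from 58806569 to 59133970 and Ntrk3 on chromosome 7 from 78175959 to 78738012. Bdnf lies on chromosome 2 from 109674700 to 109727007, Ngfr on chromosome 11 from 95568818 to 95587735 and Gdnf on chromosome 15 from 7810846 to 7837575. Exons of antisense genes overlap those of Bdnf over 896 bases and those of Gfra1 over 416 bases; the libraries kept strand, but no source used here says whether the counting used it, so reads of these antisense genes may be among their counts.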

How the data were processed

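Strand-specific RNA libraries from 2 pooled retinas each were made per the labels' protocols; TopHat2 2.1.0, HTSeq, edgeR and the mm10 build are named, with no role or order, per the submitters' processing notes. The authors deposited raw gene counts for 6 libraries. The authors also deposited a gene table that gives FPKM once per group, the log2 fold change and its p-value, per the file headers. Column numbers are not those of the titles, so columns were assigned to groups only. Members and lists were chosen with earlier results of these data known, and some list genes, left out after their values were seen, are not reported here. After filterByExpr, 13905 genes were tested by the robust quasi-likelihood method of edgeR 4.0.16 (R 4.3.3) with TMM factors and a term for genotype, at an adjusted p under 0.05 over all of them. Errors of edgeR fold changes are the absolute log2 fold change divided by the square root of the F statistic of that fit. Errors of pair ratios and of levels relative to markers are standard errors from the variances among libraries. At these depths a gene needed about 0.777 CPM in 3 libraries, here per library total before TMM scaling. Alternatives used DESeq2 1.42.0, limma 3.58.1 voom, other factors, filters and left-out libraries, and lowess removal of a GC trend (GENCODE M21, longest transcript). Named genes were the members, up to 3 called genes per list and direction, and the nearest 3 genes to each called member; uncalled list genes were chosen after their values were seen. A second table, of genes the authors selected, held no member and was not used.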

Additional observations from a re-analysis of the deposited data

How the results depend on the processing

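Over 18 alternatives (17 for Ntf3, which a filter at a mean of 1 CPM removed) the call of Ntf3 held in 17 of 17, with log2 fold changes from 2.47 to 3.11. Ntf3 passed the main filter only through its rd10 libraries, so its count of held calls is not independent support. The call of Ret held in 11 of 18 (0.23 to 0.74) and that of Gfra1 in 10 of 18 (0.14 to 0.65). None of these 3 genes changed sign. Ntrk2 was called in 4 of 18 (0.07 to 0.59). Of all genes, 2008 were called with TMM, 3043 with library size alone, 3938 with inner neuron scaling, 1285 against a fold of 1.2, 4536 with the GC trend removed and 885 to 3214 with a library left out; calls with rd10 higher made up 49.3% of them under TMM, 63.3% under upper quartile factors, 81.2% under library size and 16.3% under inner neuron scaling. Called members numbered 3 with TMM, 4 with upper quartile factors, library size alone or the GC trend removed, 1 with inner neuron scaling, 1 against a fold of 1.2 and 1 to 2 with a library left out. Called genes of the 6 pathway lists numbered 8 with TMM, 17 under library size alone, and 14 under inner neuron scaling. Library size alone placed the median of all genes at 0.20 and inner neuron scaling at -0.31, against -0.04 with TMM. Members not called changed sign in places: Bdnf had -0.26 with inner neuron scaling, -0.19 without both WT-1 and Rd10-4 (chosen after seeing the data) and -0.24 to 0.25 with a library left out; Ngfr had -0.17 with inner neuron scaling and -0.0443 to 0.295 with a library left out; Ntrk3 had 0.0341 with library size alone. With a library left out, the log2 ratio of Gfra1 over Ret differed between groups by -0.188 to 0.0124 and that of Gdnf over Gfra1 by -0.016 to 0.526, and relative to inner neuron markers Bdnf differed by -0.52 to 0.14 and Ngfr by -0.228 to 0.0131. The cause of these shifts was not tested. No paired analysis was possible because the column numbers (1, 4 and 23 against 3, 4 and 5) are not the replicate numbers of the titles. Depth limited Gdnf, with at most 7 counts per library, and the WT level of Ntf3.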
